A study of Mus musculus with 12 samples.

Results

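Glul, Oat, Slc1a2, Rhbg and Lect2 are grouped here as genes of the narrow ring of hepatocytes next to the central vein. This zone of the liver lobule makes glutamine. The 5 genes were taken by name, with no threshold on a measured value, and are 5 of 52636 mouse genes in the table. All 5 passed the filter on low values, which left 16563 genes for testing. RNA was sequenced from hepatocytes of steatotic livers of 6 mice, 3 wild type (WT) and 3 with a knockout (KO) of Ptprk, which encodes the receptor-type protein tyrosine phosphatase kappa. Cells of each liver were separated by lipid content on a Percoll density gradient, so that there are 2 libraries per mouse, low-fat and high-fat, and the 12 libraries form 4 groups of 3. Mice are numbered here by replicate, 1 to 3. In the labels, replicates 1 to 3 are mice 1, 5 and 6 for WT and mice 2, 4 and 6 for KO. What all groups share is a steatotic liver. The labels give neither the knockout allele nor strain, age, sex, diet or what induced the steatosis, and they name the tissue as liver while the extraction protocol describes isolated hepatocytes.

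The hepatocytes around the central vein take up the glutamate and ammonia that have escaped the rest of the lobule and join them into glutamine. Cells further upstream, on the portal side, break glutamine down and feed ammonia into the urea cycle. The central program depends on beta-catenin, which acts through TCF/LEF factors and is maintained by Wnt and R-spondin ligands from the endothelium of the central vein. Among the 5 genes, Glul encodes glutamine synthetase, and Oat encodes ornithine aminotransferase, which turns ornithine into glutamate semialdehyde and yields glutamate. Slc1a2 encodes the glutamate carrier GLT-1, Rhbg an ammonium carrier of the Rhesus family, and Lect2 a secreted hepatokine first described as a leukocyte chemotactic factor and known as a target of beta-catenin in liver.

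In GENCODE M21, on the GRCm38 assembly, Glul lies on the plus strand at chr1:153899944-153909723 and Oat on the minus strand at chr7:132557478-132576398. Slc1a2 spans chr2:102658659-102790784 on the plus strand. Rhbg spans chr3:88242874-88254709 on the minus strand, and Lect2 spans chr13:56542464-56548502 on the minus strand. The RefSeq promoter table (GRCm38.p6) held 4 of the 5 genes, all but Rhbg, with 250 bases before and 50 bases after the start. The letters CTTTGA, the core of the site read by TCF/LEF factors, were searched on both strands, where the reverse complement reads TCAAAG. They occurred in 5257 of 32851 promoters of the same length (16.0%). Glul and Oat held none in this window, Slc1a2 held 2 and Lect2 held 1. The sequences are shown because the 5 genes are known for a shared beta-catenin program. They run 5′ to 3′ along the transcribed strand, with the motif on either strand in capitals. Glul is at chr1:153899679-153899978 (plus strand), Slc1a2 at chr2:102706188-102706487 (plus strand, inside the GENCODE gene and downstream of its first annotated start) and Lect2 at chr13:56548489-56548788 (minus strand).
Glul: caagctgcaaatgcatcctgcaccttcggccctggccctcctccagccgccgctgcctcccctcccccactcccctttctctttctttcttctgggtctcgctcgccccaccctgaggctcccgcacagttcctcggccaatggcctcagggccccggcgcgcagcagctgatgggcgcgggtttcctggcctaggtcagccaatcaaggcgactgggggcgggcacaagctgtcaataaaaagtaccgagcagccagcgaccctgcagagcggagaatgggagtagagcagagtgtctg
Slc1a2: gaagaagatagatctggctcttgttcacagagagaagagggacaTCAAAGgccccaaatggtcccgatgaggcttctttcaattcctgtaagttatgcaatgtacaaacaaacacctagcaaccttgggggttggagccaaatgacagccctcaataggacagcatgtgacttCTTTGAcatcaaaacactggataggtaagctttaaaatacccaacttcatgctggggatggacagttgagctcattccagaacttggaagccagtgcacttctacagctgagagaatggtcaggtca
Lect2: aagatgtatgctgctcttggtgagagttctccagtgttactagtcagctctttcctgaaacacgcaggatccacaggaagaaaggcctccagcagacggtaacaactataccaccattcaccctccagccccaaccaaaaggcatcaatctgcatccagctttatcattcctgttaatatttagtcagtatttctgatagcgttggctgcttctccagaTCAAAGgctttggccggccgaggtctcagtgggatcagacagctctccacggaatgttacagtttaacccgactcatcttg
A match is a run of letters and was not tied to binding in these data. The Slc1a2 matches begin at bases -206, as the reverse complement, and -77, as written, relative to the start. The Lect2 match begins at base -31, as the reverse complement. The window of Glul was rich in G and C (64.3%), as was that of Oat (61.7%), against 45.7% for Slc1a2 and 48.0% for Lect2.

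Values are the authors' reads per 20 M (mega), whole numbers scaled to nearly the same total in each library. The depth behind them, estimated from the spacing of low values, was 15.1 to 25 M reads per library, and a level of 3 reads corresponds to 2.40 to 3.98 reads per 20 M. Ptprk, which checks the labels, was lower in every KO library, at 1271 ± 135 against 2788 ± 83.7 with low fat, and 1200 ± 19.3 against 2407 ± 209 with high fat (SD, n = 3), so Ptprk RNA was lowered but not absent. The hepatocyte label was checked with 8 markers (such as Alb and Apob), whose summed level was between 591108 and 746799 in every library. Markers of other liver cells were present too and moved with the fraction, as given beside the results they move with. Summed adipocyte markers were at 0 to 4 and neutrophil markers at 3 to 42. In bulk RNA, fewer cells of a type and less RNA per cell cannot be told apart. The 3 replicates of a group are different mice by their labels. P-values on mouse means therefore measure the spread between mice. Where mouse was a term, as for the fractions and the interaction, they measure the spread of differences within mice. For KO against WT inside a fraction, the spread was pooled from all 12 libraries around the 4 group means. Both libraries of a mouse entered that fit as separate units, although the same-mouse correlation was 0.351.

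**Figure D1:**
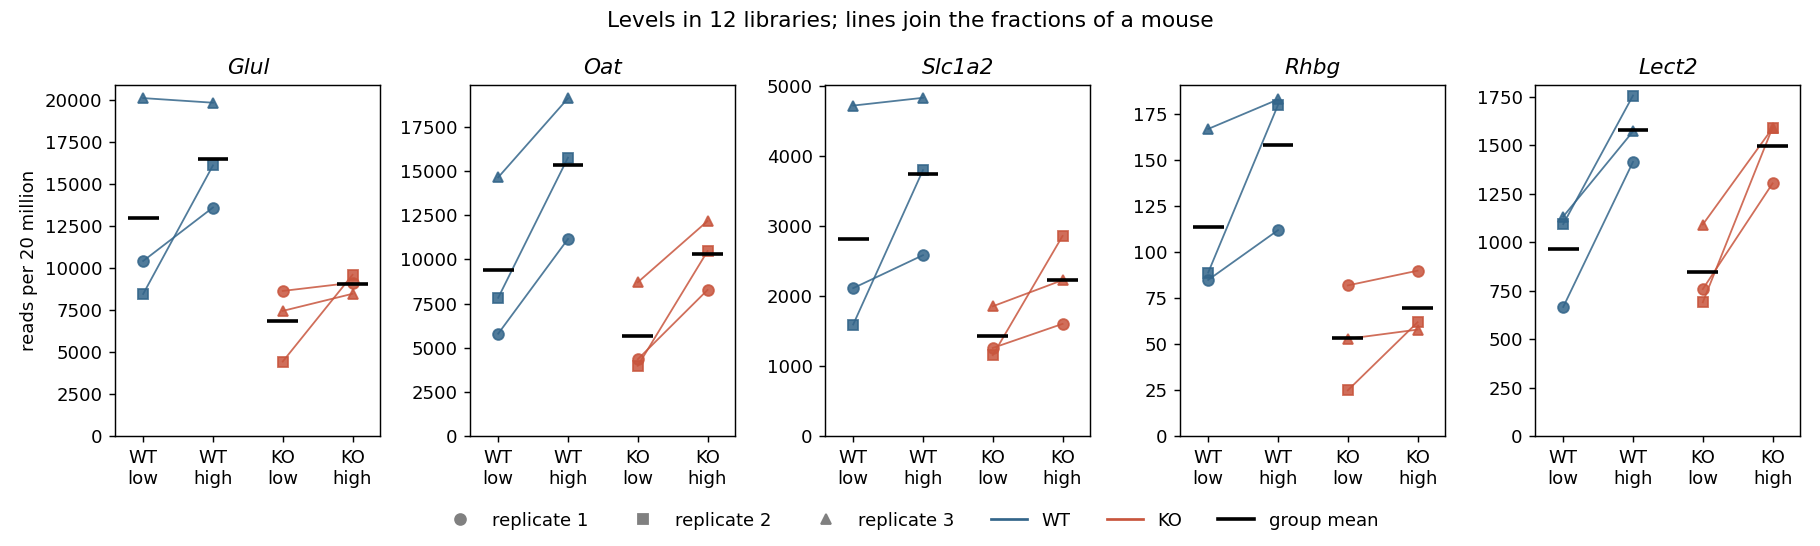
Deposited level of each gene (vertical axes, reads per 20 M, from 0) in each of the 12 libraries, with 1 panel per gene. Points are libraries, lines join the 2 fractions of a mouse, black bars are group means, and the 4 groups are WT and KO, low-fat and high-fat. Glul and Rhbg lie lower in KO than in WT high-fat libraries without overlap, and Lect2 lies higher in the high-fat than in the low-fat libraries of both genotypes without overlap.

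Glul varied most between mice in the low-fat WT libraries. Its level was 10414, 8454 and 20084 in WT low-fat replicates 1 to 3, and 13589, 16088 and 19810 in WT high-fat replicates 1 to 3. For KO replicates it was 8635, 4443 and 7450 with low fat, and 9124, 9593 and 8466 with high fat. Replicate 3 stood above the other WT mice in both fractions, and the lowest value of all belonged to KO low-fat replicate 2. The high-fat WT and KO libraries did not overlap, whereas in the low-fat fraction WT replicate 2, at 8454, lay under the highest KO library.

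Oat was lowest in the KO low-fat group and highest in the WT high-fat group. Its level was 5798, 7828 and 14629 in WT low-fat and 11149, 15742 and 19095 in WT high-fat replicates 1 to 3. In KO it was 4353, 3984 and 8702 with low fat, and 8272, 10463 and 12162 with high fat. Each mouse had more Oat RNA in its high-fat library, and WT and KO overlapped in both fractions. Replicate 3 was the highest in each of the 4 groups.

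The transport genes were at lower levels. Slc1a2 was at 2117, 1598 and 4725 in WT low-fat, 2588, 3803 and 4836 in WT high-fat, 1263, 1159 and 1858 in KO low-fat and 1607, 2863 and 2232 in KO high-fat replicates 1 to 3. WT replicate 3 was the highest in both fractions, and the genotypes overlapped in each. Rhbg was at 85, 89 and 167 in WT low-fat, 112, 180 and 183 in WT high-fat, 82, 25 and 53 in KO low-fat and 90, 62 and 58 in KO high-fat replicates. In the high-fat fraction all KO libraries were below all WT libraries for Rhbg. In the low-fat fraction they lay closer, with 82 in the highest KO and 85 in the lowest WT library, and these overlapped once rescaled between libraries. Across fractions KO high-fat replicate 1, at 90, was just above the lowest WT low-fat values. The lowest Rhbg value, 25, rested on few reads, with a 95% Poisson interval of 16.0 to 35.9 that covers counting error only, and the highest, 183, had an interval of 158 to 209.

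The libraries of the 2 fractions separated by the level of the hepatokine gene Lect2, while the genotypes overlapped. Its level was 667, 1094 and 1133 in WT low-fat and 1415, 1757 and 1572 in WT high-fat replicates 1 to 3. In KO it was 759, 691 and 1092 with low fat, and 1304, 1592 and 1589 with high fat. In both genotypes the lowest high-fat library exceeded the highest low-fat library.

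Ordered by group mean, Glul, Slc1a2 and Rhbg ran from WT high-fat through WT low-fat and KO high-fat to KO low-fat. For Glul these means were 16500 ± 3130, 12980 ± 6230, 9061 ± 566 and 6843 ± 2160 (SD, n = 3), and neighbouring groups in this order overlapped. The order of Oat and Lect2 followed the fraction instead, from WT high-fat through KO high-fat and WT low-fat to KO low-fat. The Lect2 means were 1581 ± 171, 1495 ± 165, 964.7 ± 259 and 847.3 ± 215 (SD, n = 3), where KO high-fat and WT low-fat were the only neighbours that did not overlap. Per kilobase of annotated exonic sequence, Oat and Glul led in all libraries, Oat at 1688 to 8091 and Glul at 1337 to 6044 reads per 20 M per kb. Lect2 followed at 725.8 to 1912, Slc1a2 at 88.25 to 368.2 and Rhbg at 12.91 to 94.48 on the same scale. Oat exceeded Glul in 10 of the 12 libraries.

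The first comparison asks how the knockout relates to these genes within one fraction. In the low-fat libraries the KO to WT difference, on the log2(value + 2) scale, was -0.87 ± 0.34 (SE) for Glul and -1.13 ± 0.42 for Rhbg. The enzyme Oat and the glutamate carrier Slc1a2 also had lower estimates, at -0.70 ± 0.38 and -0.84 ± 0.40, and Lect2 was at -0.17 ± 0.22. None of the 5 genes was called by limma (adjusted p = 1 for each), where 1 gene of the 16563 tested was called (0.00604%), Ptprk itself, at -1.13 with an adjusted p of 0.000978. Glul (95% interval -1.60 to -0.13) and Rhbg (-2.04 to -0.22) were 2 of 5 with an unadjusted p under 0.05, as were 1.64% of all genes tested. On the rescaled values 0 of 5 were lower in KO without overlap, and 2.79% of all genes were. The Glul estimate was -0.47 without WT low-fat replicate 3, and that of Slc1a2 was -0.35 without the same library.

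In the high-fat libraries the same genes had the lowest estimates. Glul was at -0.83 ± 0.34 (SE) and Rhbg at -1.13 ± 0.42, with no overlap between genotypes for either gene, which was so for 2.64% of all genes in this direction. Slc1a2 was at -0.71 ± 0.40, Oat at -0.53 ± 0.38 and Lect2 at -0.06 ± 0.22. Again 0 of 5 were called (limma, adjusted p = 1 for each) and 1 gene of all tested was (0.00604%), Ptprk, at -0.98 with an adjusted p of 0.00446. Here too Glul (95% interval -1.56 to -0.09) and Rhbg (-2.04 to -0.21) were the 2 of 5 with an unadjusted p under 0.05, against 1.97% of all genes.

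Averaging both fractions of each mouse makes the mouse the unit of genotype. On these 6 mouse means Glul in KO was at 0.557 of the WT level, a log2 difference of -0.85 with a 95% interval of -1.41 to -0.29. Rhbg was at 0.458 of WT (log2 difference -1.13, interval -1.88 to -0.38), Slc1a2 at 0.584 (-0.78) and Oat at 0.652 (-0.62). For Lect2 the ratio was 0.926 and the log2 difference -0.11 ± 0.17 (SE). The mouse means of WT and KO did not overlap for Glul, Slc1a2 and Rhbg, 3 of 5 genes, and 3.39% of all genes were lower in KO without overlap. Those 3 also had unadjusted limma p-values under 0.05, as did 2.23% of all genes, and Glul and Rhbg ranked 56 and 57 of 16563 by p. None passed adjustment (limma, adjusted p = 1 for each of the 5), and 0.00604% of genes tested did. Without WT replicate 3 the log2 difference was -0.57 for Glul, -0.32 for Oat and -0.42 for Slc1a2.

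**Figure D2:**
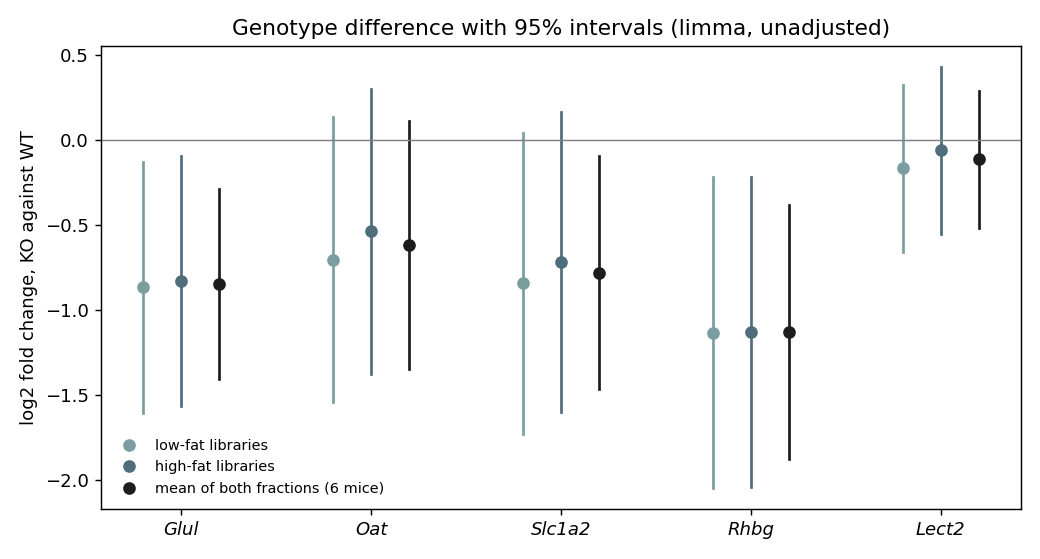
Difference between KO and WT on the log2(value + 2) scale (vertical axis) for each of the 5 genes, in low-fat libraries, high-fat libraries and mouse means of both fractions. Points are limma estimates and bars unadjusted 95% intervals, which exclude 0 in all 3 comparisons for Glul and Rhbg, in mouse means only for Slc1a2 and in none for Oat and Lect2.

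Most markers of endothelial cells and macrophages also had lower estimates in KO, as had most stellate markers for low-fat cells. All 10 endothelial markers (such as Pecam1 and Stab2) had lower estimates in KO in both fractions, with a median log2 difference of -0.66 for low-fat cells, -0.42 for high-fat cells and none called. On mouse means 7 of these 10 had an unadjusted limma p under 0.05, as did 2.23% of all genes. All 10 macrophage markers had lower estimates in KO for low-fat cells, with a median of -0.77, as did 8 of 10 for high-fat cells, with a median of -0.09. Of the 10 stellate markers, 9 were lower for low-fat cells, with a median of -0.50, and 5 for high-fat cells, with a median of 0.03. None of either list was called. The summed endothelial level was 2762 to 2897 in WT low-fat against 1255 to 2452 in KO low-fat libraries, and 5990 to 15677 against 4854 to 10171 in the high-fat ones. Without both mice of number 1, whose high-fat libraries held the most macrophage and endothelial marker RNA, the KO to WT log2 difference on mouse means was -1.05 for Glul, -0.71 for Oat, -0.81 for Slc1a2, -1.60 for Rhbg and -0.18 for Lect2, with 0 of 5 called. In the same fit the median on mouse means was -0.26 for endothelial, -0.20 for macrophage and 0.29 for stellate markers. For low-fat cells these medians were -0.27, -0.40 and 0.21, so the lower stellate estimates depended on the mice of number 1. KO low-fat replicate 1 had a summed stellate level of 212, against 700 and 824 in KO low-fat replicates 2 and 3. The part of these cells in the Glul, Slc1a2 and Rhbg values was not tested.

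The second comparison sets the high-fat against the low-fat library of the same mouse. Over all 6 mice, Oat rose 1.72-fold and Lect2 rose 1.64-fold in the high-fat fraction. The log2 difference was 0.78 (95% interval 0.48 to 1.08; limma with mouse as a term, adjusted p = 0.00895) for Oat and 0.72 (0.48 to 0.96, adjusted p = 0.00559) for Lect2, and each was higher in 6 of 6 mice. These 2 of 5 stand beside 10.5% of all genes called in this comparison, with 1101 genes higher (6.65%) and 630 lower (3.8%). Higher genes were 63.6% of those called, and 77.5% (1179 against 342) with the deposited scaling alone. Of all genes, 9.74% were higher in every mouse. Without mouse as a term the adjusted p was 0.134 for Oat and 0.0209 for Lect2, so that 1 of 5 was called, against 5.76% of all genes. With no filter on low values neither was called (adjusted p = 0.211 for Oat and 0.177 for Lect2). Oat was also not called without WT low-fat replicate 2 (adjusted p = 0.0507) or WT high-fat replicate 2 (adjusted p = 0.0522).

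Glutamine synthetase and the carriers had positive estimates that limma did not call. The log2 difference over 6 mice was 0.37 for Glul (interval -0.03 to 0.77, adjusted p = 0.208), 0.51 for Slc1a2 (0.06 to 0.95, adjusted p = 0.132) and 0.43 for Rhbg (-0.02 to 0.88, adjusted p = 0.194). The spread between mice was wide: for Glul the difference was 0.25, 0.92 and -0.12 in WT mice 1 to 3 and -0.15, 1.12 and 0.19 in KO mice 1 to 3. The mice of number 2 stood highest in both genotypes. Rhbg repeated this order of mice at 0.26, 0.99 and 0.03 in WT and -0.09, 1.26 and 0.13 in KO. Slc1a2 did so too, at 0.16, 1.24 and -0.07 in WT and 0.12, 1.31 and 0.27 in KO. Which of the near-zero mice were below 0 depended on the scaling: Glul was higher in 4 of 6 mice, Slc1a2 in 5 and Rhbg in 5 here, and in 5, 6 and 6 of 6 with the deposited scaling alone. Oat, by contrast, ranged from 0.28 in WT mouse 3 to 1.40 in KO mouse 2, and Lect2 from 0.37 in WT mouse 3 to 1.21 in KO mouse 2.

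**Figure D3:**
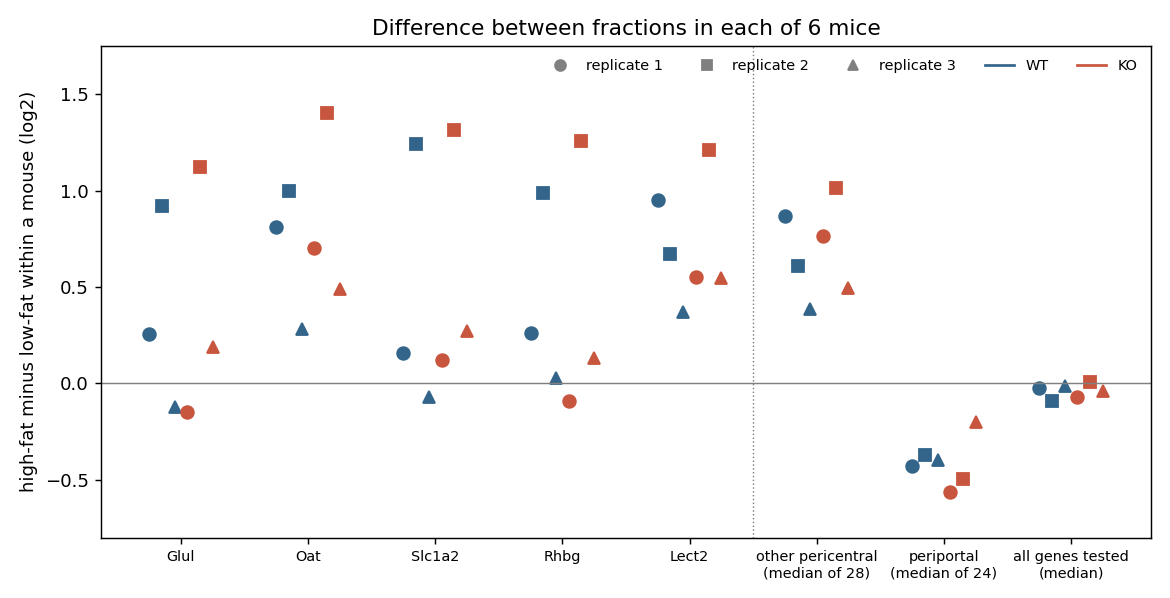
High-fat minus low-fat difference of each mouse on the log2(value + 2) scale (vertical axis) for the 5 genes, beside the medians of 28 other pericentral and 24 periportal genes and of all genes tested in the same mouse. Each point is 1 mouse of the 6, with shape for the replicate number and colour for WT or KO. Oat and Lect2 are above 0 in all 6 mice, and Glul, Slc1a2 and Rhbg in 4, 5 and 5. The KO mouse of replicate 2 is the highest of the 6 for each of the 5 genes.

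Within one genotype the comparison rests on 3 mice. In KO, Lect2 rose by 0.77 ± 0.15 (SE; limma with mouse as a term, adjusted p = 0.043) and was the 1 gene of 5 that was called, against 2.13% of all genes (1.7% higher). Its adjusted p was 0.156 without mouse as a term, where 0 of 5 and 0.894% of all genes were called. It was not called either without replicate 2 or 3 of any of the 4 groups, each left out singly (adjusted p from 0.0524 to 0.11). Oat in KO had a log2 difference of 0.86 with an adjusted p of 0.0573. In WT 0 of 5 were called by limma and 1.02% of all genes were. Oat was at 0.70 (adjusted p = 0.111) and Lect2 at 0.67 (adjusted p = 0.0775) there. Both were called without either library of KO mouse 1 or KO mouse 2, each left out singly (adjusted p from 0.00926 to 0.0449). These were also the 2 of 5 with an unadjusted p under 0.05, against 19.2% of all genes. The libraries of the 2 fractions did not overlap for Lect2 in either genotype, which held, in the higher direction, for 9.1% of all genes in WT and 7.72% in KO.

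The interaction asks whether the fraction difference differs between genotypes. It was 0.04 for Glul (interval -0.76 to 0.84), 0.17 for Oat, 0.13 for Slc1a2, 0.01 for Rhbg and 0.11 for Lect2 (interval -0.38 to 0.59), as KO minus WT on the log2 scale. None was called by limma (adjusted p = 1 for each), no gene of all tested was (0%), and 0 of 5 had an unadjusted p under 0.05 against 0.386% of all genes. For Glul the interval includes differences larger than its fraction difference over the 6 mice.

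The high-fat libraries carried more RNA of stellate cells, macrophages and endothelial cells. All 10 stellate cell markers (such as Dcn and Reln), 9 of 10 Kupffer cell and macrophage markers (such as Clec4f) and all 10 endothelial markers were called higher over 6 mice, with median log2 differences of 2.52, 2.23 and 1.78. Of all genes, 6.65% were called higher. Over both genotypes summed stellate markers were at 212 to 914 in low-fat libraries, against 2773 to 5182 in the others. Summed macrophage markers reached 11664 in WT and 10117 in KO high-fat replicate 1, the highest of all libraries. Without both mice of number 1, the log2 difference over the other 4 mice was 0.81 for Oat (limma, adjusted p = 0.00535) and 0.71 for Lect2 (0.00159). It was 0.54 for Glul (0.0856), 0.70 for Slc1a2 (0.0561) and 0.61 for Rhbg (0.116). Again 2 of 5 were called, beside 1224 of all 15951 genes tested in this fit. Those 4 mice also had more marker RNA in the high-fat library, with median log2 differences per mouse from 1.62 to 2.82 for stellate, 0.72 to 1.91 for macrophage and 1.03 to 1.61 for endothelial markers. Markers of cholangiocytes, lymphocytes and red cells, 2 tested of each, all had lower estimates in the high-fat libraries over 6 mice. Their medians were -0.44, -0.22 and -0.88. Of these, 1 cholangiocyte and 1 red cell marker were called lower, beside 3.8% of all genes. The cholangiocyte pair was Sox9 and Spp1, while Krt19, Krt7, Epcam and Cldn7, at 7 or less in every library, were not tested. The lymphocyte pair, Cd3e and Cd79b, was at 18 or less, and both were higher in WT mouse 1 and KO mice 1 and 3. Of the red cell pair, Alas2 was at 2051 to 3765, while the untested Hbb-bt was at 0 to 79. Whether these pairs track the cells they are named for was not tested. Adipoq, Plin1 and Lep, which define adipocytes, were at 0 in 10, 11 and 12 of the 12 libraries. The part of the other cells in the fraction differences was not tested.

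The genes did not all follow one pattern across the libraries. Over the 12 libraries, which share mice in pairs, the log2 values of Glul and Rhbg had a Pearson r of 0.95 and those of Glul and Slc1a2 0.91. Oat had an r of 0.91 with Slc1a2 and 0.87 with Lect2, whereas Lect2 had only 0.52 with Glul and 0.47 with Rhbg. With the 4 group means removed, the r was 0.88 for Glul and Rhbg and 0.44 for Rhbg and Lect2. Among 10516 other genes, those most like Lect2 were Rgn (r = 0.98), Tmem98 (0.97) and Cldn2 (0.96), and those most like Oat were Lhpp (0.97), Gstm2 (0.93) and Fitm1 (0.93). Rgn is itself a pericentral gene, encoding regucalcin. Lhpp lies 34239 bases from Oat on the opposite strand and does not overlap it. Fgfr2 overlaps Oat on the same strand but shares 0 exonic bases with it, and had 3.5% to 46.2% of the Oat level.

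For the other 3 genes the transcript of nearest pattern overlapped the gene itself. Glul was most like Teddm2 (r = 0.98) and Mir8114 (0.97), both annotated over the Glul locus, and Gm38392 (0.96). Gm38392 was also most like Rhbg (0.98), ahead of Teddm2 (0.96) and Mir8114 (0.95). It lies on the same strand as Rhbg, shares 1190 exonic bases with it (78.1% of its own) and had 93.3% to 164% of its level, so how reads were divided between the pair is uncertain and with it the level of Rhbg. Slc1a2 was most like its antisense transcript Gm13872 (0.99), which shares 189 exonic bases and had 9.84% to 13.8% of its level, followed by Slc13a3 (0.92) and Glul (0.91). Teddm2, on the strand opposite Glul, had 6.33% to 7.88% of the Glul level and shared 116 exonic bases. Mir8114, on the same strand as Glul, shares 93 exonic bases with it (83.8% of its own) and had 4.78% to 6.46% of its level. How reads were divided between Glul and Mir8114 is uncertain too. Whether counting used strand is not given in the sources used here, so reads of the antisense pairs cannot be told apart.

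Other genes of glutamine, glutamate and ammonia handling were called in both directions between the fractions. Of 35 tested genes of this list, 10 had higher and 25 lower estimates in the high-fat libraries over 6 mice, with a median of -0.14 against -0.04 for all genes, of which 41.4% had higher estimates. By limma 2 rose and 6 fell, beside 6.65% and 3.8% of all genes. Without mouse as a term 3 were called, and with the deposited scaling alone 13 estimates were higher and 22 lower. Without the mice of number 1, 2 rose and 5 fell, where 1224 of all 15951 genes tested were called. The largest fall was that of Gls2, the liver glutaminase that opens glutamine breakdown, by 0.70 on the log2 scale (limma, adjusted p = 0.00519). In WT its level was 14420 ± 886 in the low-fat group against 9153 ± 750 in the high-fat group, and in KO 14710 ± 742 against 9890 ± 1570 (SD, n = 3). The fall in Got1, the cytosolic aspartate aminotransferase, was 0.45 (log2 difference -0.45, adjusted p = 0.00536), and Slc25a12, a mitochondrial aspartate-glutamate carrier, had a log2 difference of -0.31 (adjusted p = 0.0148). The genes that rose were amino acid carriers, Slc7a8 by 2.06 (adjusted p = 0.0128) and Slc7a5 by 0.99 (adjusted p = 0.00769). Slc7a8 was highest, at 215 and 172, in the high-fat libraries of WT and KO replicate 1, the libraries with the most macrophage marker RNA. The part of macrophage RNA in this rise was not tested.

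None of this list was called by genotype. On mouse means 24 of its 35 genes had higher and 11 lower estimates in KO, with a median of 0.03. By limma 0 were called and 1 had an unadjusted p under 0.05, against 2.23% of all genes. The largest estimates were 0.47 for Pycr1, which makes proline, and 0.37 for the glutamine carrier Slc1a5. Both rest on few reads, with group means of 7.667 to 11.33 for Pycr1 and 8.333 to 16 for Slc1a5. The lowest were -0.48 for Slc7a8 and -0.47 for the neutral amino acid carrier Slc1a4. Gls2 was at 0.08.

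Other genes of the zones split by fraction. All 28 other pericentral genes had higher estimates in the high-fat libraries over 6 mice, as had 41.4% of all genes. Their median was 0.69, and 22 were called higher, beside 6.65% of all genes. The largest rises were 1.36 for Nkd1 (limma, adjusted p = 0.00605) and 1.09 for Lgr5 (0.00779), both beta-catenin targets, and 1.08 for the cytochrome P450 gene Cyp2c29 (0.00271). Among 24 periportal genes, all with lower estimates and a median of -0.38, 16 were called lower, beside 3.8% of all genes. The largest falls were in Aldh1b1 (log2 difference -1.17, adjusted p = 0.00314), the E-cadherin gene Cdh1 (-0.99, 0.00271) and Etnppl (-0.79, 0.00271). Without mouse as a term, 10 pericentral and 8 periportal genes were called, and without the mice of number 1, 24 and 16. Over all genes these fits called 5.76% and 1224 of 15951. Oat and Lect2 thus lay near the pericentral median of 0.69, at 0.78 and 0.72. Slc1a2, at 0.51, Rhbg, at 0.43, and Glul, at 0.37, lay below it. No difference from that median was tested.

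**Figure D4:**
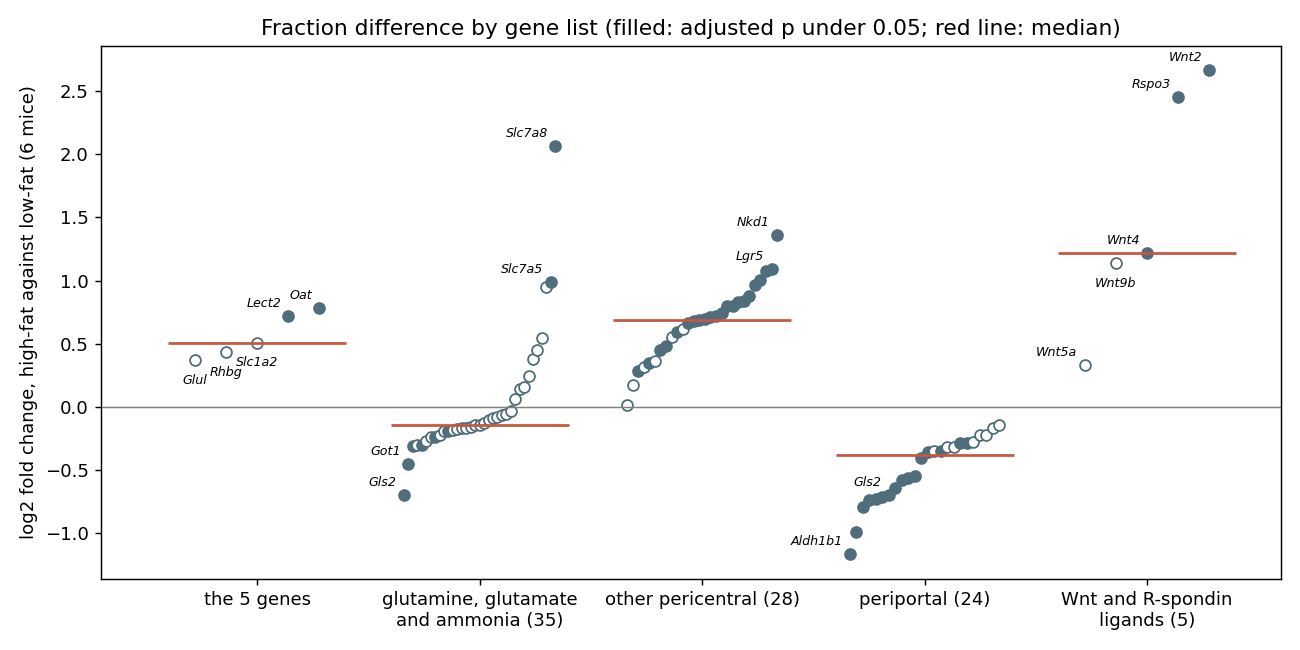
High-fat minus low-fat difference over 6 mice on the log2(value + 2) scale (vertical axis) for each tested gene, 1 column per list, with the 5 genes in the first. Points are genes in rising order, filled where the adjusted p was under 0.05, and red lines are list medians. The 28 other pericentral genes all lie above 0 and the 24 periportal genes all lie below 0.

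The knockout did not separate the other zone genes by limma. On mouse means 9 of the 28 other pericentral genes had higher and 19 lower estimates in KO, with a median of -0.10. By limma 0 were called and 3 had an unadjusted p under 0.05, against 2.23% of all genes. Lowest were the cation carrier gene Slc22a3 at -0.88 and Nkd1 at -0.88, both with an unadjusted p under 0.05, and highest Sult2a8 at 0.23 and Cyp2a5 at 0.18. Periportal genes had 17 higher and 7 lower estimates, a median of 0.06 and 0 called, with Ctsc at 0.64, Hsd17b6 at 0.37, Etnppl at -0.21 and Fbp1 at -0.08. The estimate of Rhbg, -1.13, was lower than that of any of the 28 other pericentral genes, and that of Glul, -0.85, came just above Slc22a3 and Nkd1.

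Of the Wnt and R-spondin ligands, 5 of 7 were tested. Over 6 mice 3 of these were called higher in the high-fat libraries, beside 6.65% of all genes. In the high-fat libraries Wnt2 rose by 2.67 (limma, adjusted p = 0.00791), Rspo3 by 2.46 (0.00271) and Wnt4 by 1.22 (0.0294) on the log2 scale over 6 mice. Rspo3, the R-spondin of central vein endothelium, was at 8.667 ± 1.53 in WT low-fat, 63.33 ± 19.1 in WT high-fat, 4.667 ± 3.06 in KO low-fat and 32 ± 2 in KO high-fat cells (SD, n = 3). Its KO to WT difference on mouse means was -0.83, with an unadjusted p under 0.05, Wnt9b was at -0.50 and Wnt4 at 0.03, and none of the 5 was called. Wnt2 was at 0 in KO low-fat replicate 1. Wnt9b and Wnt4 also rest on few reads, with group means of 3 to 13.67 and 4.667 to 13.33. All 10 endothelial markers likewise had higher estimates in the high-fat libraries and lower ones in KO, and the part of endothelial RNA in the ligand values was not tested.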

How the data were processed

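RNA was sequenced from polyA libraries of low-fat and high-fat hepatocytes of 3 WT and 3 KO mice, separated by Percoll gradient and differential centrifugation, per the labels' protocols. The deposited values are a score: reads per gene, which the authors brought to a total of 20 M (mega) in each library and rounded up, as read from column sums and gaps between low values. The submitters' processing notes name the build mm9. An aligner, a counter and strand use are not given in the sources used here, and coordinates here are those of GENCODE M21 and RefSeq on GRCm38. The 5 genes, the lists and the tests were chosen with earlier results of these data known.

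Because depth was scaled away, no count model was used. Depth was estimated from the value gaps at 15.1 to 25 M reads (largest error 0.902% on 15 simulated libraries), and floors and intervals cover counting error only. Values were rescaled by the trimmed mean of M values, and log2(value + 2) was tested for genes at 10 or more in at least 3 libraries with limma 3.58.1 in R 4.3.3 (trend, two-sided, Benjamini-Hochberg over 16563 genes, called under 0.05). The fit, run over 7 comparisons, was tested on simulated data. Genotype was compared over 4 group means or 6 mouse means, and fractions with mouse as a term.

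The labels give both fractions of a mouse the same mouse name, which is where that pairing comes from. Deviations of the 2 fractions correlated at 0.471 to 0.581 in WT mice and -0.012 to 0.458 in KO mice. Between different mice of a genotype they correlated at -0.474 to -0.044 in WT and -0.433 to 0.28 in KO. The values thus set the pairs of a mouse apart in WT but not in KO, where the pairing rests on the labels. WT and KO mice of the same replicate number are different animals. Their deviations correlated at 0.252 to 0.397 in the low-fat and -0.173 to 0.49 in the high-fat libraries.

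Named beside the 5 genes were the 3 genes of highest Pearson r with each (mean value of at least 100) and, from each list, the called genes, or the 3 largest rises and falls where more than 6 were called, or the 2 largest of each, as values, where none was. Alternatives were another scaling, pseudocount or filter, a same-mouse correlation, only the libraries compared and each library left out. For KO against WT the replicate number was added as a block, and for the fractions and the interaction the mouse term was dropped. Leaving out both mice of number 1 was chosen after seeing the data.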

Additional observations from a re-analysis of the deposited data

How the results depend on the processing

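Across the alternatives, 650 of 710 values of the 5 genes kept their direction and side of the threshold, and no high-fat against low-fat difference changed direction. The number of the 5 genes called for high-fat against low-fat over 6 mice was 2. It was 1 without mouse as a term, 0 with no filter and 1 to 2 with 1 library left out. In KO it was 1, and was 0 without mouse as a term, 0 with only the libraries compared and 0 with no filter. It was 2 with the deposited scaling alone, 2 without the mice of number 1 and 0 to 2 with 1 library left out. In WT it was 0, and 2 with only the libraries compared, with a range of 0 to 2 with 1 library left out. No KO to WT difference of the 5 was called under any alternative, including the replicate number as a block, where the smallest adjusted p on mouse means was 0.917. Over the alternatives other than leaving out 1 library, the adjusted p over 6 mice ranged from 0.00402 to 0.211 for Oat and from 0.00159 to 0.177 for Lect2, and in KO from 0.0085 to 0.562 for Lect2. Oat was not called over 6 mice without either library of WT mouse 2 (adjusted p up to 0.0522), and Lect2 in KO was not called in 8 of the 12 fits with 1 library left out.

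With 1 library left out, the KO to WT difference of Lect2 was between -0.40 and 0.003 for low-fat cells and between -0.15 and 0.10 for high-fat cells. The interaction ranged from -0.33 to 0.35 for Glul, -0.10 to 0.35 for Oat, -0.25 to 0.55 for Slc1a2, -0.41 to 0.32 for Rhbg and -0.12 to 0.26 for Lect2, and for Rhbg it was -0.006 with the deposited scaling alone and -0.039 with a pseudocount of 10. Over the other alternatives, genes called over all genes ranged from 0 to 28 for KO against WT on mouse means (1 as reported), 0 to 1532 for the fractions in WT (169), 0 to 528 in KO (353) and 3 to 1913 over 6 mice (1731). With 1 library left out they ranged from 0 to 0, 0 to 1646, 0 to 318 and 603 to 3161 in the same order. Without mouse as a term the fractions gave 0, 148 and 954. The cause of these shifts was not tested. Depth limits Rhbg most, at 25 reads per 20 M in its lowest library.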
